A study of Mus musculus with 4 samples.

Results

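The replication-dependent histone genes encode the proteins that package newly made DNA. They were taken here as all autosomal protein-coding genes of GENCODE release M21 (GRCm38) whose symbol begins with Hist1h, Hist2h, Hist3h or Hist4h, which gave 67 of 20807 genes. The genes were placed in the topologically associating domains (TADs) of AML12 cells, an immortalized mouse hepatocyte line, as measured by in situ Hi-C. The cells were grown flat (2D) or embedded in Matrigel (3D). All samples were exposed to hydroxyurea at 1 mM, for 24 h in the flat culture and 36 h in Matrigel, so the time of exposure cannot be told apart from the culture. Each culture had 2 replicates, which the authors combined before TADs were called, so that each culture had 1 list of TADs. The values below therefore carry no error between replicates and no p-value, and genes that share a TAD are not independent observations. The lists hold positions on a grid of 40 kb without read counts. How deeply a TAD was sequenced is thus not known, and the cell type could not be checked against marker genes.

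Replication-dependent histone genes lie in tight clusters and are transcribed together in S phase. The core histones H2A, H2B, H3 and H4 form the nucleosome, and the linker histone H1 binds the DNA between nucleosomes. Their messenger RNAs end in a stem-loop in place of a poly(A) tail. The protein encoded by Slbp binds this stem-loop, and the factor encoded by Npat activates transcription at the clusters. Hydroxyurea blocks ribonucleotide reductase and with it DNA replication, and histone messenger RNA is known to be degraded when replication stops. Expression was not analysed here. A TAD is a stretch of chromosome whose parts contact each other more often than the sequence on either side, and a border is a position where a TAD starts or ends.

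The 67 genes fell into 5 blocks, with less than 500 kb between neighbouring gene starts. Chromosome 13 carried 54 genes. Of these, 23 lay in a proximal block of 327 kb, from Hist1h2bl to Hist1h2bj, and 31 in a distal block of 403 kb, from Hist1h4h to Hist1h2aa, 1488 kb further along. Chromosome 3 carried 10 genes within 49.9 kb, from Hist2h2ab to Hist2h2bb. Chromosome 11 carried the H2B gene Hist3h2ba and the H2A gene Hist3h2a, 5.76 kb apart, and chromosome 6 carried the H4 gene Hist4h4 alone. The set held 6 H1, 18 H2A, 18 H2B, 12 H3 and 13 H4 genes.

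The stem-loop at the end of the transcript is the sequence feature for which these genes are best known, and the rule, which used symbols alone, did not use it. A match to it, with a stem of 6 bases and a loop of 4, was found in the 120 bases after the stop codon of 65 of the 67 genes. The exceptions were Hist2h2be and Hist1h2an, for which this window held no match. Among the 20740 other autosomal protein-coding genes, 1 gene had a match, or 0.00482%. This was H2afx, which encodes a variant H2A protein and stands below among the replication-independent genes. The matches began 22 to 59 bases after the stop codon, with a median of 31 bases, and had 8 distinct sequences. One gene is given below for each, with the bases of the stem in capitals, as read from the RefSeq sequence of GRCm38.p6.
Hist1h3h: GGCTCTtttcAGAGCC
Hist2h2ab: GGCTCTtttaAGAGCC
Hist2h2ac: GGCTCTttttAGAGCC
Hist1h3g: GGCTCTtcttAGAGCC
Hist4h4: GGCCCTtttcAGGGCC
Hist1h4i: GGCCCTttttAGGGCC
Hist1h4b: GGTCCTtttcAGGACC
Hist1h4a: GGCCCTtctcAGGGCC
The first of these was carried by 41 genes, that of Hist2h2ab by 9 and that of Hist4h4 by 8. Those of Hist1h4i and Hist1h4b were carried by 2 genes each, and those of Hist2h2ac, Hist1h3g and Hist1h4a by 1 each. The stem divided the set by histone. The 52 matches in H1, H2A, H2B and H3 genes opened with the first arm GGCTCT. None of the 13 H4 genes had this arm. In 11 of them the match opened as in Hist4h4, and in 2 of them, Hist1h4j and Hist1h4b, as shown for Hist1h4b.

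Inside the chromosome 13 blocks, 3 borders lay at the same position in 2D and in 3D. On a grid of 40 kb, the side of a border on which each flanking gene falls is not resolved. The promoters of the nearest histone gene on either side of each border are shown. They span 250 bases before to 50 bases after the gene start in RefSeq (GRCm38.p6), and the capitals mark, on either strand, the 4 motifs spelled out after them.
Hist1h3h promoter, chr13:21717378-21717677, plus strand: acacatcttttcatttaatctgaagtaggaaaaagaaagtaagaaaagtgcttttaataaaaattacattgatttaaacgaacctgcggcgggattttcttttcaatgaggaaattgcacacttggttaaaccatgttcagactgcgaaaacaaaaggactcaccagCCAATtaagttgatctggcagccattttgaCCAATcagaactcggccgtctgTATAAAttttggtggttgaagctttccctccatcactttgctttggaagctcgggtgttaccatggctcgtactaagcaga
Hist1h2bm promoter, chr13:21721794-21722093, plus strand: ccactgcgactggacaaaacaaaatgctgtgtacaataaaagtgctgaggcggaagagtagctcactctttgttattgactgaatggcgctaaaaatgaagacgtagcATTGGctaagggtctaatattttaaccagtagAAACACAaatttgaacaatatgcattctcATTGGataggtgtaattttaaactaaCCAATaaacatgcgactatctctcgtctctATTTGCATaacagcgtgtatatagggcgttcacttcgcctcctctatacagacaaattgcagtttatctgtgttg
Hist1h2bk promoter, chr13:22035571-22035870, plus strand: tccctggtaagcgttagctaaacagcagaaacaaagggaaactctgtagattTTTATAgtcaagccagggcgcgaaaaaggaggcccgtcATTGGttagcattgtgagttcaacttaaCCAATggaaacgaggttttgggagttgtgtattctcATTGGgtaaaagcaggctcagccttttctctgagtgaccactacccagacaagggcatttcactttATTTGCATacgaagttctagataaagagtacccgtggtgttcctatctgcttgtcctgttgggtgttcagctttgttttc
Hist1h4i promoter, chr13:22041313-22041612, minus strand: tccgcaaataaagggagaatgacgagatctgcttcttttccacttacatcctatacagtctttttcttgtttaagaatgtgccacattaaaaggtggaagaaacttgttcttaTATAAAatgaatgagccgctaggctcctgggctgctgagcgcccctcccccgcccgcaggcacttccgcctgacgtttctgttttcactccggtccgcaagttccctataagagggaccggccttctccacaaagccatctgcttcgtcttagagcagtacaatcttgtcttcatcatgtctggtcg
Hist1h4b promoter, chr13:23756687-23756986, plus strand: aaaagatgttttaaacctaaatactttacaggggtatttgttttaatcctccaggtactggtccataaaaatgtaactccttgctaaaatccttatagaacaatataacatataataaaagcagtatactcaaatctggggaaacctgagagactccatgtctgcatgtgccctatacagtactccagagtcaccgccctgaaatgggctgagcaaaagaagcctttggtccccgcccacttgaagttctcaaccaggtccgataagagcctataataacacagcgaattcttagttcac
Hist1h4a promoter, chr13:23761200-23761499, minus strand: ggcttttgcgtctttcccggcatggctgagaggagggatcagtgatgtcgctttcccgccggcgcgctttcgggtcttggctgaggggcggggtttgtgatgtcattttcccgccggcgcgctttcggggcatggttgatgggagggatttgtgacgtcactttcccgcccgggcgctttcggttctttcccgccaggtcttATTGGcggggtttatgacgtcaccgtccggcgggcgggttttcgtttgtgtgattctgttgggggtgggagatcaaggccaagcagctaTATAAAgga
Hist1h3h and Hist1h2bm flank the first border, Hist1h2bk and Hist1h4i the second, and Hist1h4b and Hist1h4a the third. Of the 67 genes, 62 had a promoter in the RefSeq table. CCAAT, the CCAAT box, was found in 53 of these (85.5%), against 37.3% of the 31396 autosomal promoters of the same length. All 6 H1, 18 H2A, 16 H2B and 10 H3 promoters held it, but only 3 of the 12 H4 promoters. TATAAA, the letters of the TATA box, was found in 35 (56.5%, against 13.6%), whatever its position. In Hist1h4a it lay after the gene start. ATTTGCAT, the octamer known from H2B promoters, was found in 13 (21%, against 1.75%), of which 7 were H2A and 6 were H2B promoters. The promoters of divergent genes overlap, and the 13 matches lay at 10 distinct positions. Distinct positions were not counted for the other motifs, so a match shared by overlapping promoters counts in each. AAACACA, an element known from H1 promoters, was found in 5 of the 6 H1 promoters and in 9 promoters of the set (14.5%, against 7.28%). Each motif was searched by itself, on both strands and at any position of the promoter, so that matches of different motifs may overlap. A match is a description of the sequence and not a binding site.

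In 2D, 55 of the 67 genes (82.1%) started inside a TAD, and in 3D 39 (58.2%). Of all autosomal protein-coding genes, 77.3% started inside a TAD in 2D and 84.1% in 3D, so the order of the cultures was the opposite for the histone genes. Leaving out TADs under 200 kb gave counts of 48 in 2D and 24 in 3D. No share over all genes is given for this setting, so the contrast with all genes was not checked under it. In another setting, stretches between TADs that measure a whole number of 80 kb segments were split into such segments, which were counted as TADs. Every stretch with a histone gene had such a length, so all 67 genes were then inside one in both lists. For the TADs as listed, this difference rested on the distal block of chromosome 13. Without it, 24 of 36 histone genes (66.7%) lay inside a TAD in 2D and 34 of 36 (94.4%) in 3D. Those 34 include 15 genes of the proximal block that share 1 TAD of 120 kb. A lower limit of 200 kb removes these 15 in 3D and none of the 24 in 2D. Fewer of the 36 genes are then inside a TAD in 3D than in 2D, so this order depends on small TADs. Both lists placed 29 genes (43.3%) inside a TAD, against 73.6% of all genes. Inside a TAD in 2D only were 26 genes (38.8%, against 3.73%), in 3D only 10 genes (14.9%, against 10.5%), and in neither list 2 genes (2.99%, against 12.2%). The 26 genes all lay in 1 stretch outside TADs in 3D, and 9 of the 10 in 1 such stretch in 2D, so that these counts rest on 2 places of chromosome 13 and on Hist4h4. From 2D to 3D, the number inside a TAD went from 5 to 2 of the 6 H1 genes, from 15 to 12 of the 18 H2A genes, from 14 to 11 of the 18 H2B genes, from 11 to 6 of the 12 H3 genes and from 10 to 8 of the 13 H4 genes.

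**Figure D1:**
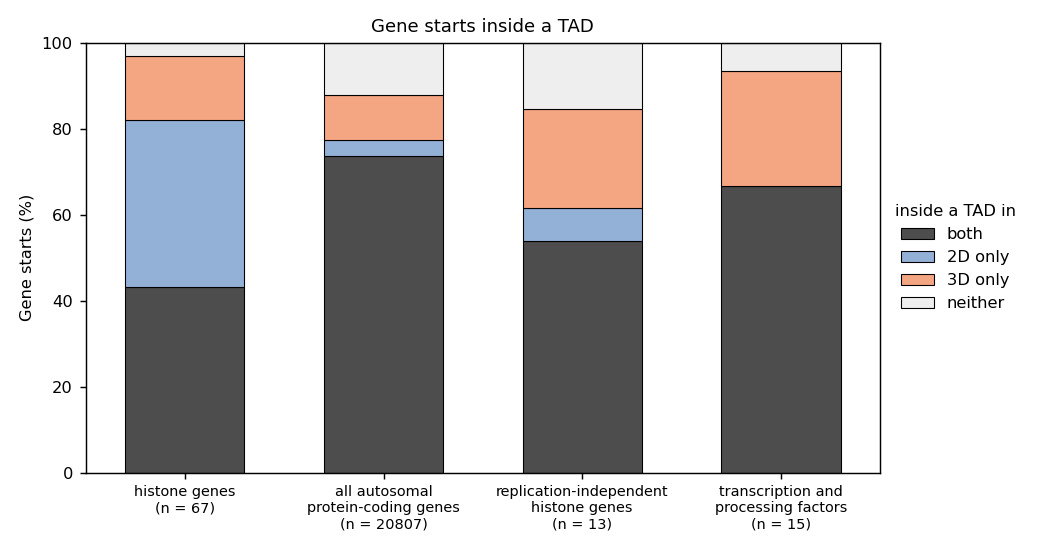
Stacked bars give the percent of gene starts that lay inside a TAD in both cultures, in 2D only, in 3D only or in neither, for the 67 histone genes, all 20807 autosomal protein-coding genes, 13 replication-independent histone genes and 15 factors of histone gene transcription and messenger RNA processing. The share inside a TAD in 2D only was 38.8% for the histone genes and 3.73% for all genes.

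The distal block held 31 genes, and all of them were inside TADs in 2D. They were divided among 3 abutting TADs on chromosome 13. The first, from 23400001 to 23560000 (160 kb), held the starts of Hist1h4h, Hist1h2af, Hist1h3g, Hist1h2bh, Hist1h3f, Hist1h4f and Hist1h1d, together with Abt1 and the butyrophilin genes Btn1a1 and Btn2a2. The second, from 23560001 to 23760000 (200 kb), held 19 histone genes from Hist1h3e to Hist1h4b and 1 other gene, Hfe, which encodes a regulator of iron uptake. With 20 gene starts it was among the most gene-dense TADs of the list. Only 5 of the 4221 autosomal TADs in 2D, itself included, had as many starts per kb or more. The third, from 23760001 to 24000000 (240 kb), held Hist1h4a, Hist1h3a, Hist1h1a and the testis histone genes Hist1h2ba and Hist1h2aa. It also held Trim38, Scgn and the 4 phosphate transporter genes Slc17a2, Slc17a3, Slc17a1 and Slc17a4.

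In 3D, the first 26 of these 31 genes lay outside any TAD. They sat in a single stretch of 320 kb from 23440001 to 23760000, from Hist1h4h to Hist1h4b, with Btn1a1, Btn2a2 and Hfe. The 26 genes comprised 4 H1, 5 H2A, 6 H2B, 6 H3 and 5 H4 genes. The stretch held 29 gene starts, and 5 of the 1076 autosomal stretches between TADs in 3D, itself included, held as many or more, while 85 were as long or longer. The border of 2D between the first and second TADs, at 23560000, had no counterpart in 3D, where the nearest border lay 120 kb away. It ran between Hist1h1d and Hist1h3e, and the body of Hist1h1d as annotated in GENCODE, from 23553262 to 23560686, crossed it. The stem-loop of Hist1h1d, at 23555787 to 23555802, lay before this border. The border at 23760000 was at the same position in both lists. The 5 genes beyond it remained inside a TAD in 3D, which extended to 24320000 and measured 560 kb. This TAD held the same 6 other genes as in 2D and Carmil1. Thus 5 of the 31 genes (16.1%) were inside a TAD in 3D, against 31 of 31 in 2D.

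**Figure D2:**
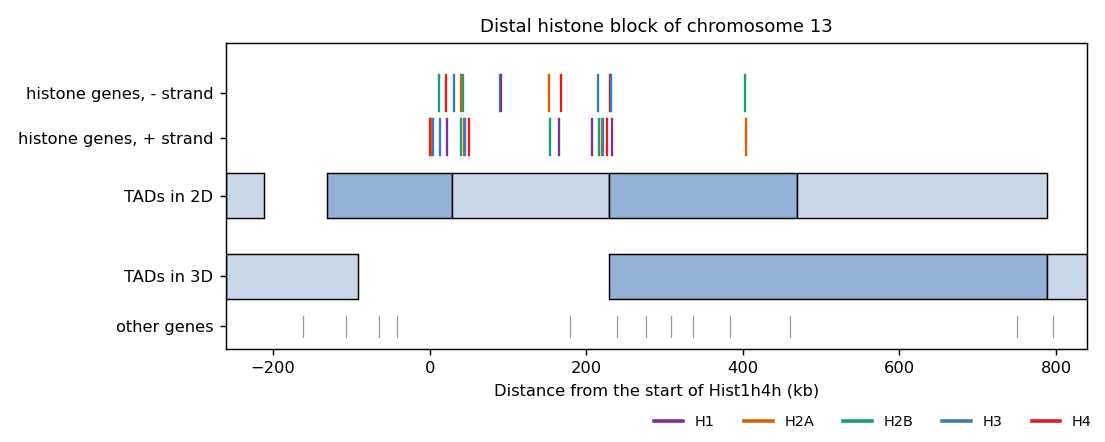
TADs in 2D and in 3D are drawn as boxes along the distal block of chromosome 13, with histone gene starts as coloured ticks above them by histone and strand and other protein-coding gene starts as grey ticks below. The horizontal axis is the distance from the start of Hist1h4h in kb, and the row for 3D is empty over the 320 kb that hold 26 histone genes, while 3 TADs cover the block in 2D.

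The composition of this stretch was measured beside the result. It held no unknown bases. Repeats made up 27.7% of it, against 33.4% of the 60007 autosomal bins of 40 kb, and it had 96.8 sites of MboI, the enzyme of the assay, per bin, against 99.6. Of its 30-base words, 12.8% were found at another position of the assembled chromosomes. The 160, 200 and 240 kb TADs of 2D had 8.02, 15.9 and 5.05% such words. Their part in the placement was not tested. The bin from 23640001 to 23680000, which held no gene start, had the highest repeat content of the stretch, 50.8%. The length of 320 kb is a whole number of segments of 80 kb. The lists do not say whether such stretches are unassigned or hold segments that were not listed. Here they were taken as unassigned.

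The proximal block went the other way. In 2D, 14 of its 23 genes (60.9%) lay inside a TAD, and in 3D all 23. This order rests on 1 TAD of 120 kb in 3D that held 15 of the genes. With TADs of at least 200 kb only, these 15 drop out in 3D and the 14 in 2D stay, so the order turns. The 9 genes outside in 2D were Hist1h2bm, Hist1h4j, Hist1h4k, Hist1h2ak, Hist1h2bn, Hist1h1b, Hist1h3i, Hist1h2an and Hist1h2bp. They occupied a stretch of 80 kb from 21720001 to 21800000 that held no other protein-coding gene start. By gene starts per kb, 7 of the 1441 autosomal stretches of 2D, itself included, were as dense or denser. Beside it, a TAD from 21800001 to 22040000 (240 kb) held 8 genes from Hist1h2bq to Hist1h2bk with Zfp184, Pom121l2 and Prss16.

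In 3D, the same 9 genes and the next 6 (Hist1h2bq, Hist1h2ao, Hist1h4m, Hist1h4n, Hist1h2ap and Hist1h2br) shared 1 TAD of 120 kb, from 21720001 to 21840000. These 15 genes were its only protein-coding gene starts. At 12.5 gene starts per 100 kb, it was among 4 TADs, of 4094 on the autosomes in 3D, with this density or a higher one. A TAD of 120 kb is the smallest size in either list. The remaining pair before the next border, Hist1h2ah and Hist1h2bk, lay in a TAD from 21840001 to 22040000 (200 kb) with Zfp184, Pom121l2 and Prss16. The border at 21800000 in 2D and that at 21840000 in 3D were 1 bin apart and counted as shared within 40 kb. The 6 genes between these positions lay with Hist1h2ah and Hist1h2bk in 2D and with the 9 genes in 3D.

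**Figure D3:**
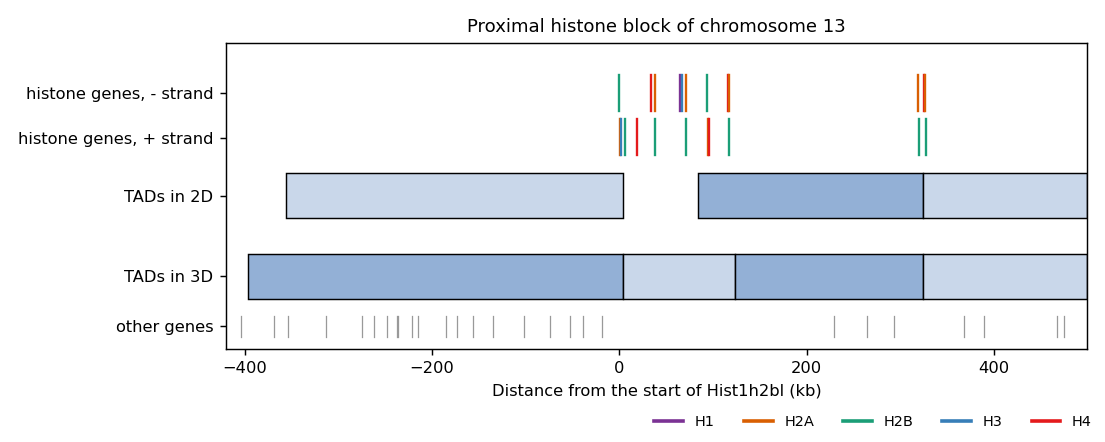
TADs in 2D and in 3D are drawn as boxes along the proximal block of chromosome 13, with histone gene starts as coloured ticks above and other protein-coding gene starts as grey ticks below, against the distance from the start of Hist1h2bl in kb. The 80 kb with 9 histone genes that are empty in the row for 2D are part of a TAD of 120 kb with 15 histone genes in 3D.

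The composition was measured here as well. In the 3D TAD of 120 kb, 41.6% of the 30-base words occurred elsewhere on the assembled chromosomes, and in its last bin, from 21800001 to 21840000, which held the 6 genes, 78.1% did. The first and second bins had 11.8% and 35%. The TAD that starts at 22040001, whose first bin holds the last 3 genes of the block, had 41.4% in 2D and 39.5% in 3D, and no value over all autosomes was computed. Where a read did not map uniquely, the authors lengthened the mapped part in steps, and kept only reads with a mapping quality above 30. How many reads were lost to repeated words is thus not known, and the part of such sequence in the position of the border was not tested. Repeats made up 31.4% of this TAD, and it had 96 MboI sites per bin.

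The ends of the proximal block were divided alike in both lists. Hist1h2bl, Hist1h2ai and Hist1h3h lay in the last bin of a TAD that ended at 21720000, 360 kb long in 2D and 400 kb in 3D. This TAD also held 18 other genes in 2D and 19 in 3D, among them 8 and 9 olfactory receptor genes and 5 zinc finger genes. At the other end, Hist1h4i, Hist1h2ag and Hist1h2bj lay in the first bin of a TAD that started at 22040001, 1280 kb long in 2D and 1400 kb in 3D. It held 36 genes of the vomeronasal receptor family Vmn1r in both lists and spans most of the space between the histone blocks. In 3D it also held Zfp322a and Abt1. With 39 gene starts in 2D, it was 1 of 14 autosomal TADs with as many or more, and with 41 in 3D 1 of 15. Repeats made up 44.5% of it in 2D.

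The chromosome 3 cluster was not divided. Its 10 genes (4 H2A, 2 H2B, 3 H3 and 1 H4) lay in a single TAD from 96040001 to 96280000 (240 kb), with identical ends in both lists. The same TAD held Vps45, Otud7b, Mtmr11, Sf3b4, Sv2a and Bola1. The histone genes were gathered at its distal end, with Hist2h2bb 10.2 kb and Hist2h2ab 60.1 kb from the border at 96280000.

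The chromosome 11 pair lay outside any TAD in both cultures. In 2D, Hist3h2ba and Hist3h2a were in a stretch of 160 kb, from 58920001 to 59080000, with Rnf187, Trim17 and Trim11. In 3D the stretch began at 58680001 and measured 400 kb. It then held 18 other genes, of which 10 were olfactory receptor genes. Of the 1076 autosomal stretches in 3D, 11 held as many gene starts or more, itself included, and 61 were as long or longer. Repeats made up 11.7% of the 2D stretch and 22.6% of the 3D stretch.

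Hist4h4 on chromosome 6 was outside any TAD in 2D, in a stretch of 80 kb from 136760001 to 136840000. In 3D it was inside a TAD of 640 kb from 136800001 to 137440000 and lay 4.41 kb from its border. The replication-independent H2A gene H2afj, which is its neighbour, was placed in the same way as Hist4h4 in both lists.

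**Figure D4:**
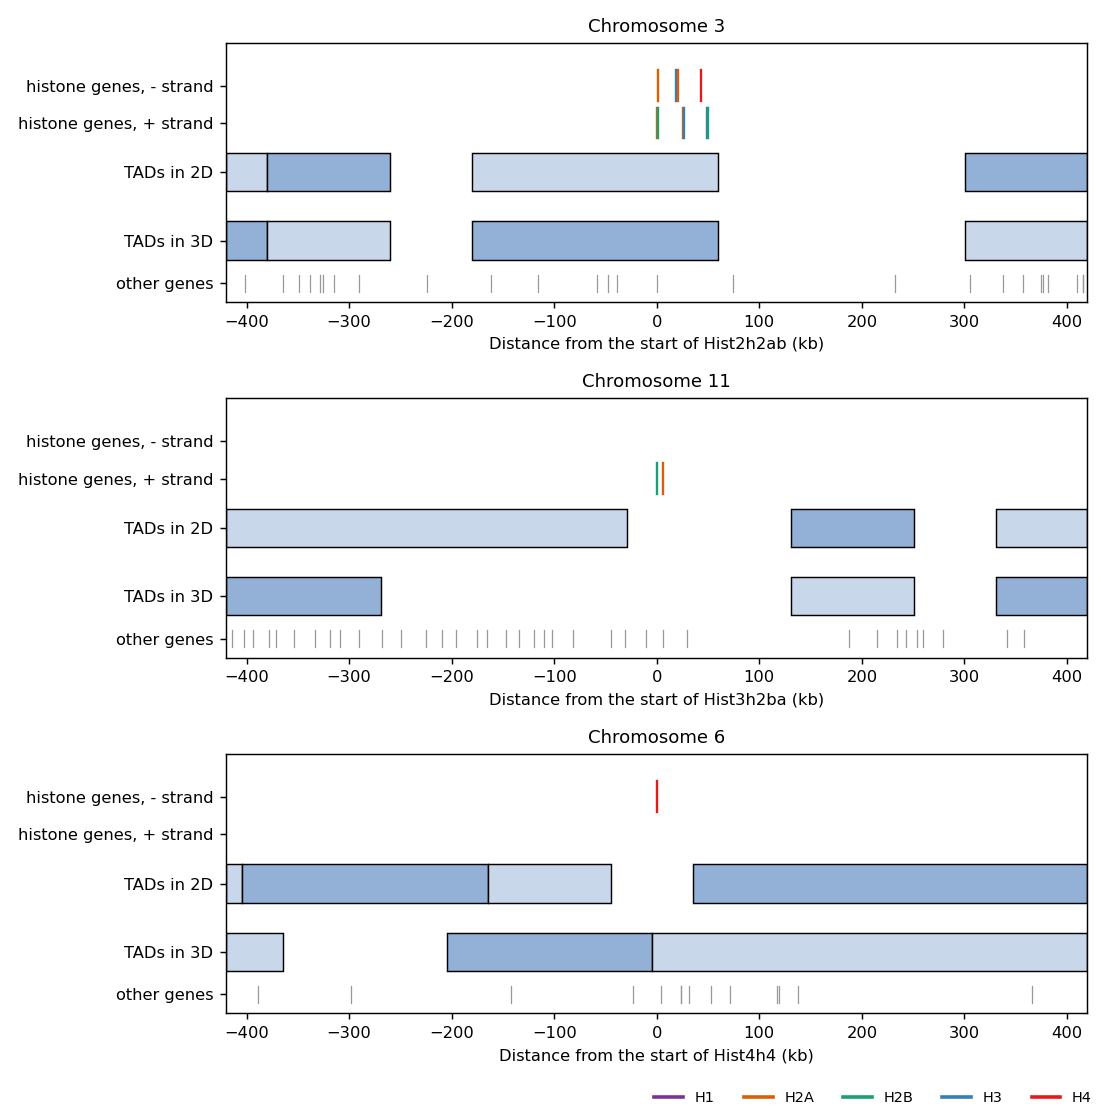
TADs in 2D and in 3D are drawn as boxes around the histone genes of chromosomes 3, 11 and 6, from top to bottom, against the distance in kb from the start of Hist2h2ab, Hist3h2ba and Hist4h4. The 10 genes of chromosome 3 share 1 TAD of 240 kb with the same ends in both rows, the pair of chromosome 11 lies between TADs in both rows, and Hist4h4 lies inside a TAD in 3D only.

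The histone genes thus lay in 7 TADs in each list, 6 of them on chromosome 13 in 2D and 5 in 3D. A TAD is called shared here when both of its ends lie within 40 kb of the ends of 1 TAD of the other list. By this definition, 3 of the 7 TADs were shared in 2D and 4 of the 7 in 3D. Counted by gene, 21 histone genes (31.3%) were in a shared TAD in 2D and 16 (23.9%) in 3D, against 52% and 52.3% of all genes, inside or outside TADs. With identical ends required, the count was 10 in each list. These are the genes of the chromosome 3 cluster, which lie in 1 TAD, and no share over all genes is given for identical ends. Counted per gene, the median size of these TADs was 240 kb in both lists, with a range of 160 to 1280 kb in 2D and 120 to 1400 kb in 3D. The median over all genes was 320 kb in both. When each TAD was counted once, the 2D median remained 240 kb and the 3D median was 400 kb.

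The borders inside the blocks numbered 5 in 2D and 4 in 3D, all of them on chromosome 13. With stretches split into segments of 80 kb they numbered 5 and 6, so the order of the cultures is not stable. Shared with the other list were 4 of 5 in 2D (80%) and 4 of 4 in 3D, against 82.3% and 89.2% of all autosomal borders. If a border must be a position at which 2 TADs abut, 1 of 3 was shared in each list. At the same position lay 3 in each. The shares over all autosomal borders are for any border within 40 kb, and none is given for these stricter counts. The border at 21720000 ran between the H3 gene Hist1h3h (2.34 kb away) and the H2B gene Hist1h2bm (2.04 kb). That at 22040000 ran between the H2B gene Hist1h2bk (4.13 kb) and the H4 gene Hist1h4i (1.36 kb). That at 23760000 ran between the H4 genes Hist1h4b (2.99 kb) and Hist1h4a (1.23 kb). These flanking genes lay 4.38, 5.49 and 4.22 kb apart, well within a bin of 40 kb, so that the side on which each of them falls is finer than the resolution of the lists. The 2D border at 21800000 ran between Hist1h2bp and Hist1h2bq, 22.7 kb apart. That at 21840000 in 3D ran between Hist1h2br, 6.26 kb away, and Hist1h2ah, 196 kb away, with Zfp184 in between.

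Adjacent histone genes were seldom parted by a border. Of the 60 pairs of neighbouring histone genes with starts under 100 kb apart, 5 (8.33%) had a border between them in 2D and 3 (5%) in 3D, against 16.8% and 15.4% of all such pairs of neighbouring genes. The histone genes were closer together, with a median of 2.69 kb between starts against 26.3 kb. Per Mb between starts, 12.1 pairs of histone genes were parted in 2D and 7.25 in 3D, against 5.18 and 4.77 pairs of all genes, so that the order is the opposite once the spacing is counted. The 413.8 kb between the starts of the 60 pairs hold few borders, and a single border moves these rates. With stretches split into segments of 80 kb, 5 pairs were parted in each list. There were 13 divergent pairs, which point away from each other with starts less than 1 kb apart. Of these, 12 joined an H2A and an H2B gene, and the other joined Hist1h2bh and Hist1h3f. The starts of a pair were 176 to 660 bases apart, with a median of 268 bases, and none was parted in either list. On a grid of 40 kb, a border between starts this close is rare for any genes, and nothing is read from this count.

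The blocks of chromosome 13 differed in how many histone genes were kept together. Of the 465 pairs that can be formed from the 31 genes of the distal block, 202 shared a TAD in 2D and 10 in 3D, and these 10 shared one in both. Of the 253 pairs in the proximal block, 34 shared a TAD in 2D and 112 in 3D, with 22 in both. Most of these 112 pairs lie in the TAD of 120 kb with 15 genes. With TADs of at least 200 kb only, fewer pairs of this block share a TAD in 3D than in 2D. All 45 pairs of the chromosome 3 cluster shared a TAD in both lists. Of the 404 pairs with starts under 100 kb apart, 181 (44.8%) shared a TAD in 2D and 158 (39.1%) in 3D, against 54.5% and 63.2% of the 47306 such pairs of all autosomal protein-coding genes. Over the 1477 pairs on the same chromosome, 281 (19%) shared a TAD in 2D and 167 (11.3%) in 3D. The 3D count rests largely on the TAD of 120 kb with 15 genes, and with TADs of at least 200 kb only, 260 pairs shared a TAD in 2D and 62 in 3D. With stretches split into segments of 80 kb, the counts were 318 and 305. No TAD in either list held genes of both blocks of chromosome 13.

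The distance to borders was measured from gene starts. Borders lie on a grid of 40 kb, so distances below 40 kb, the medians of the histone genes among them, are finer than the resolution of the lists. The median distance from a gene start to the nearest border was 15.9 kb in 2D, with a range of 1.23 to 76.1 kb, and 34.5 kb in 3D, with a range of 1.23 to 174 kb. Over all genes, the medians were 52.9 and 58.1 kb. Within 40 kb of a border lay 55 histone genes in 2D (82.1%) and 35 in 3D (52.2%), against 41.6% and 38.9% of all genes. The distance was equal in both lists for 36 genes, longer in 3D for 27 and longer in 2D for 4. Of the 27, 18 belonged to the distal block. The same counts were not made over all genes, so they are not read as particular to the histone genes. Hist1h3e was 2.37 kb from a border in 2D and 122 kb from one in 3D, and Hist1h4d 21.6 and 142 kb. The testis histone genes Hist1h2ba and Hist1h2aa were 65.8 and 65.5 kb from a border in 2D and 174 kb in 3D. In the proximal block, Hist1h1b, which encodes an H1 protein, was 19.4 kb from a border in 2D and 59.4 kb in 3D. The pair of chromosome 11 went from 28.9 and 34.7 kb to 131 and 125 kb. The 4 genes nearer to a border in 3D were Hist4h4 (35.6 and 4.41 kb), Hist1h4n (32.2 and 7.8 kb), Hist1h2ap (33.5 and 6.49 kb) and Hist1h2br (33.7 and 6.26 kb). As the genes of a cluster share their borders, these distances are not independent of each other, and no interval is given for their medians.

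**Figure D5:**
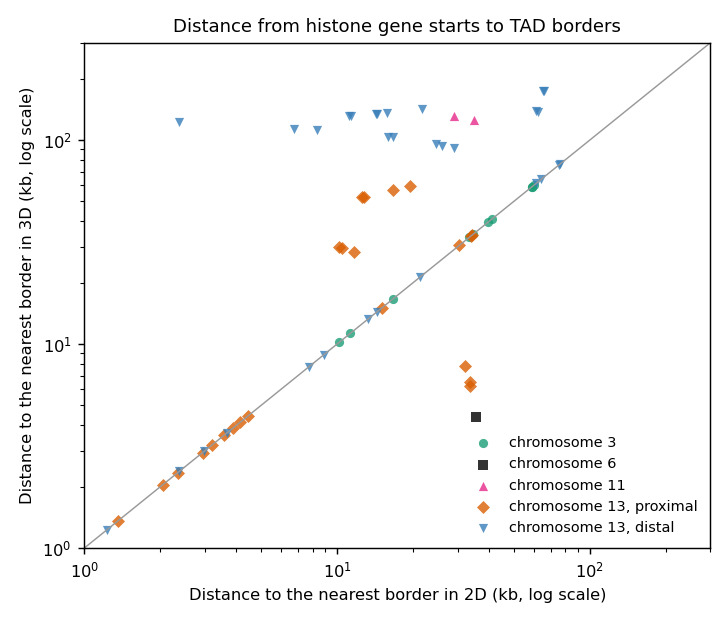
Each point is 1 of the 67 histone genes, with the distance from its start to the nearest border in 2D on the horizontal axis and in 3D on the vertical axis (kb, both log scales), and the grey line marks equal distances. Of the points, 36 lie on the line, 27 above it, among them 18 genes of the distal block, and 4 below it.

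The replication-independent histone genes encode variants that are made outside S phase as well. Of 13 such genes, 7 were inside a TAD in both lists, against 73.6% of all genes. Inside a TAD in 2D only was 1 gene (H3f3a, against 3.73% of all genes), in 3D only 3 (H2afj, H2afv and H2afy, against 10.5%) and in neither 2 (H2afz and H1fx, against 12.2%). With 13 genes, these counts are not read as differing from those shares. Cenpa, which encodes the H3 protein of centromeres, lay in a TAD of 320 kb with the same ends in both lists. H2afx, which carries the stem-loop, lay in a TAD of 280 kb in 2D and of 320 kb in 3D. In each list, 6 of the 13 genes were in a shared TAD, against 52% and 52.3% of all genes.

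Of 15 genes for factors of histone gene transcription and histone messenger RNA processing, 10 were inside a TAD in both lists, 4 in 3D only and 1 in neither, against 73.6, 10.5 and 12.2% of all genes. These counts are likewise not read as differing from the shares over all genes. Slbp was outside any TAD in 2D and in a TAD of 120 kb in 3D. Casp8ap2, Ncbp2 and Cramp1l were also inside a TAD in 3D only, and Ncbp1 in neither list. Npat lay in a TAD of 160 kb in 2D and of 240 kb in 3D, both ending at 53680000 on chromosome 9. Lsm11 and Lsm10, which encode proteins of the U7 particle that cleaves histone transcripts, lay in TADs of 2880 and 240 kb with the same ends in both lists. Zfp473, which encodes another factor of this cleavage, lay in a TAD of 120 kb in both.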

How the data were processed

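In situ Hi-C was carried out on 4 samples of AML12 cells, 2 replicates each in 2D and 3D. The authors deposited 1 list per culture with values of another kind than counts, namely where each TAD starts and ends in mm10. The authors mapped reads with Bowtie2 (version 2.2.9), lengthening in steps the mapped part of a read that did not map uniquely. They kept pairs of mapping quality above 30, combined replicates and binned contacts at 40 kb. They then applied ICE, equalized the depth per chromosome and called TADs with Armatus (version 1.0, gamma 0.8). Mapping quality filters can remove sequence present in several copies, and the depth behind a TAD is unknown.

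Only autosomes were used, with 4221 TADs in 2D and 4094 in 3D. Coordinates are 1-based. Genes were placed by their start in GENCODE M21. A border is a distinct TAD start or end, and counts as shared within 40 kb. Sequences came from GRCm38.p6 (RefSeq), and 62 of 67 promoters matched by symbol or synonym. Python 3.11.15 with numpy 2.4.6, numba 0.67.0 and matplotlib 3.10.9 was used. On simulated lists, 8 of 8 measures returned the known value. Without replicate lists, no test was made.

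The genes, lists and rules were chosen with earlier results of these data known. Named were block ends, genes whose TAD differed between lists, genes nearest to borders, Hist4h4, gene neighbours by family and the listed genes. Alternatives were the distance between matching ends, the definition of a border, TADs of at least 200 kb, stretches split into segments of 80 kb and other ways of placing genes.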

Additional observations from a re-analysis of the deposited data

How the results depend on the processing

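Other settings gave 52 values, each set against the same culture's value as reported. For 39 of them a count stayed within 1.5 times, or a median within its interval, and 13 moved further. The order of the cultures could change with either. The interval of a median treated genes that share a TAD as independent, so for medians this limit is only a rough one. The differences between the cultures were not scored in this way, and their order held under some settings and changed under others. In another setting, stretches between TADs that measure a whole number of 80 kb segments were split into such segments, counted as TADs. Every stretch with a histone gene had such a length, so all 67 histone genes are then inside a TAD in both lists, against 55 and 39. They then lay in 10 TADs in 2D and 11 in 3D, with 5 adjacent pairs parted in each list and 318 and 305 pairs in 1 TAD. The borders inside the blocks then numbered 5 in 2D and 6 in 3D, the reverse of the order reported (5 and 4). Keeping only TADs of at least 200 kb left out the 3D TAD of 15 genes. It gave 48 genes inside a TAD in 2D and 24 in 3D, with 260 and 62 pairs in 1 TAD. The median sizes were then 240 and 320 kb. In the proximal block of chromosome 13 the order of the cultures turned, for genes and for pairs. Over distinct TADs, the medians were 240 and 400 kb. With identical ends required, 10 histone genes were in a shared TAD in each list, against 21 and 16. All 10 lie in the 1 TAD of the chromosome 3 cluster. Counting only positions where 2 TADs meet left 3 borders inside the blocks in each list, with 1 shared. Where the construction of a setting does not show it, the cause was not tested.

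No paired analysis was possible because each list was called on pooled replicates, and leaving out each replicate was not possible for the same reason. No difference between the cultures can be set against one between replicates, and the depth behind a TAD is unknown.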
